A study of Mus musculus with 9 samples.

Results

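Forkhead transcription factors share a winged-helix DNA-binding domain, and 9 of them are described here in nestin-reporter cells of the 2 neurogenic regions of the adult mouse brain: Foxj1, Foxp1, Foxp2, Foxp4, Foxo1, Foxo3, Foxc1, Foxd1 and Foxm1. The members were taken by gene symbol, after the Ensembl identifiers of the expression table had been matched to GENCODE M21, and all 9 were among the 14477 genes measured. They are 9 of 21 forkhead genes in the table, and the annotation lists 44 protein-coding forkhead genes. RNA was sequenced in 9 libraries of green fluorescent cells sorted from the dissected dentate gyrus of the hippocampus (DG, n = 5) or from the subventricular zone beside the lateral ventricle (SVZ, n = 4). All mice were adults of the strain B6.Cg-Tg(Nes-EGFP)1Yamm, in which Nestin regulatory sequence drives the green fluorescent protein, and all were untreated and kept in standard housing. The tissue is the only difference between the groups that the labels give. The gate selects cells by transgene fluorescence and not by Nestin protein, and the labels do not say whether a library came from a single animal or from a pool. All p-values therefore measure the spread between these libraries, which may in part be technical.

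The family divides by role. Foxj1 switches on the genes of motile cilia in ependymal and other multiciliated cells; Foxp1, Foxp2 and Foxp4 are repressors that pair with each other and mark subsets of developing neurons, Foxp2 among them in the striatum. Foxo1 and Foxo3 act downstream of insulin signalling, where Akt keeps them out of the nucleus, and Foxo3 is known for maintaining quiescent neural stem cells. Foxc1 and Foxd1 belong to mesenchyme, including meninges and the pericytes of brain vessels, and Foxm1 drives the genes of the G2 and M phases in dividing cells.

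Promoter sequences show how differently these genes begin. RefSeq (GRCm38.p6) gave the 250 bases upstream of a start for 6 members, 8 starts in all, of which 5 are printed here 5′ to 3′ on the strand of the gene. Foxc1 and Foxd1 are shown because both had their reads almost entirely in DG libraries, Foxo1 because it is the FoxO gene that differed between the tissues, and Foxp1 because its starts carry the family's own motif. Capitals mark 2 motifs on either strand. CCAAT, the box bound by the factor NF-Y, is marked as these letters or as their reverse complement. The other motif, a core found in many of the sites that forkhead proteins are known to bind in the genome, is TGTTTA, searched in the same way.
Foxc1 (GRCm38 chr13:31806396-31806645, plus strand): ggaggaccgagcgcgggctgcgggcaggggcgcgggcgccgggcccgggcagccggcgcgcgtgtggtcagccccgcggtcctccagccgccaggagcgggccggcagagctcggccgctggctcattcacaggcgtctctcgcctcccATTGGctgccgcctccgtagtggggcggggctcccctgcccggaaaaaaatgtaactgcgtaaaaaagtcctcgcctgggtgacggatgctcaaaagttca
Foxd1 (GRCm38 chr13:98353995-98354244, plus strand): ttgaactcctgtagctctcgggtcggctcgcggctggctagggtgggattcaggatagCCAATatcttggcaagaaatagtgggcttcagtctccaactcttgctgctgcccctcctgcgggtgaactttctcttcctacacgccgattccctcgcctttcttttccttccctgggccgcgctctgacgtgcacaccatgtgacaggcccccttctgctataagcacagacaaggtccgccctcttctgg
Foxo1 (GRCm38 chr3:52268087-52268336, plus strand): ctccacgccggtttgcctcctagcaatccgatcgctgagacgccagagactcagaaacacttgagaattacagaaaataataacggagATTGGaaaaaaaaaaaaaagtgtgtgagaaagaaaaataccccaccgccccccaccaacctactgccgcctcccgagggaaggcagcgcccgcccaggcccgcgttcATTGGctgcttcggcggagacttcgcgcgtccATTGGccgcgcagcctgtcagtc
Foxp1 (GRCm38 chr6:99028299-99028548, minus strand): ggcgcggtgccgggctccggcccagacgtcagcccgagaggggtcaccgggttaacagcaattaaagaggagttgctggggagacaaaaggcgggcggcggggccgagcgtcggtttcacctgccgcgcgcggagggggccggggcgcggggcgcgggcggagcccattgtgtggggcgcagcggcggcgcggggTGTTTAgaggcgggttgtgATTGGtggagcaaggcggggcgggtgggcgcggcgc
Foxp1 (GRCm38 chr6:99266516-99266765, minus strand): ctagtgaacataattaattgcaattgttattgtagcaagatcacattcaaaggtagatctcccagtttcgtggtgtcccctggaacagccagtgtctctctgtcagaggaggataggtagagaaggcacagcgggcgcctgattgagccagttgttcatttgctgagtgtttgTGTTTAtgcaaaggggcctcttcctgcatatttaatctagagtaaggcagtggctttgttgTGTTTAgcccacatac
CCAAT was found in 4 of the 8 member promoters and in 33.8% of 32851 promoters of the same length, with 3 matches upstream of Foxo1 and 1 each upstream of Foxc1, Foxd1 and the Foxp1 start at chr6:99028299-99028548. TGTTTA was found in 3 of the 8, against 12% of all promoters, and all 3 were starts of Foxp1. The matches of the 2 motifs did not overlap in any printed sequence, and each is only a description of the letters. The printed windows also differ in CG dinucleotides, with 29 upstream of Foxc1, 12 upstream of Foxd1, 20 upstream of Foxo1, and 34 and 3 upstream of the 2 Foxp1 starts, where the median promoter has 6.

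The libraries held 33627909 to 41164044 reads in the DG and 31126803 to 32528255 in the SVZ, and 1 read was worth 0.0243 to 0.0321 CPM, which are reads scaled to a common library total. Levels below are the deposited log2 CPM, to which 1 read had been added before taking logs, and differences are DG minus SVZ on that scale. The test was limma over all 14477 genes with Benjamini-Hochberg adjustment and a threshold of 0.05. Nes itself was measured in every library, at 5.89 to 6.99 log2 CPM in the DG and 6.87 to 7.61 in the SVZ, and was 1.93-fold higher in the SVZ (limma, adjusted p = 0.00238). The sort also held markers of other cells. Each of 23 pericyte and smooth muscle genes and each of 25 endothelial genes was called higher in the DG, against 32.9% of all genes. Libraries of a group were not uniform. DG 2 had the highest mean over 31 genes of the ventral GABAergic lineage among the DG libraries (3.91 log2 CPM, against 1.80 to 2.20 in the others), DG 3 the highest mean over 15 mature neuron genes (5.76), and SVZ 1 the highest over pericyte genes among the SVZ libraries (2.20, against 1.06 to 1.36). In bulk RNA such as this, fewer cells of a type and less RNA per cell cannot be told apart.

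Of the 9 members, Foxo1, Foxc1 and Foxd1 were higher in the DG, and Foxj1, Foxp2 and Foxm1 were higher in the SVZ. Foxp1, Foxp4 and Foxo3 did not pass the threshold. Among all genes, 32.9% were called higher in the DG and 33.7% higher in the SVZ, 66.6% in either direction, so 6 called members of 9 is near the background. The 6 called members were also those whose DG and SVZ libraries did not overlap. This held for 58% of all genes (29.7% with the DG above and 28.3% with the SVZ above). Each gene measured exceeded 1 CPM in at least 3 libraries. Foxj1 could meet that only through the SVZ, and Foxc1 and Foxd1 only through the DG, so their directions are not independent of it. What set the members apart from each other was the size of the difference, which ran from -4.67 for Foxp2 to 7.06 for Foxc1 with a prior of 1 read, around a median of -0.09. The median over all genes was -0.07.

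**Figure D1:**
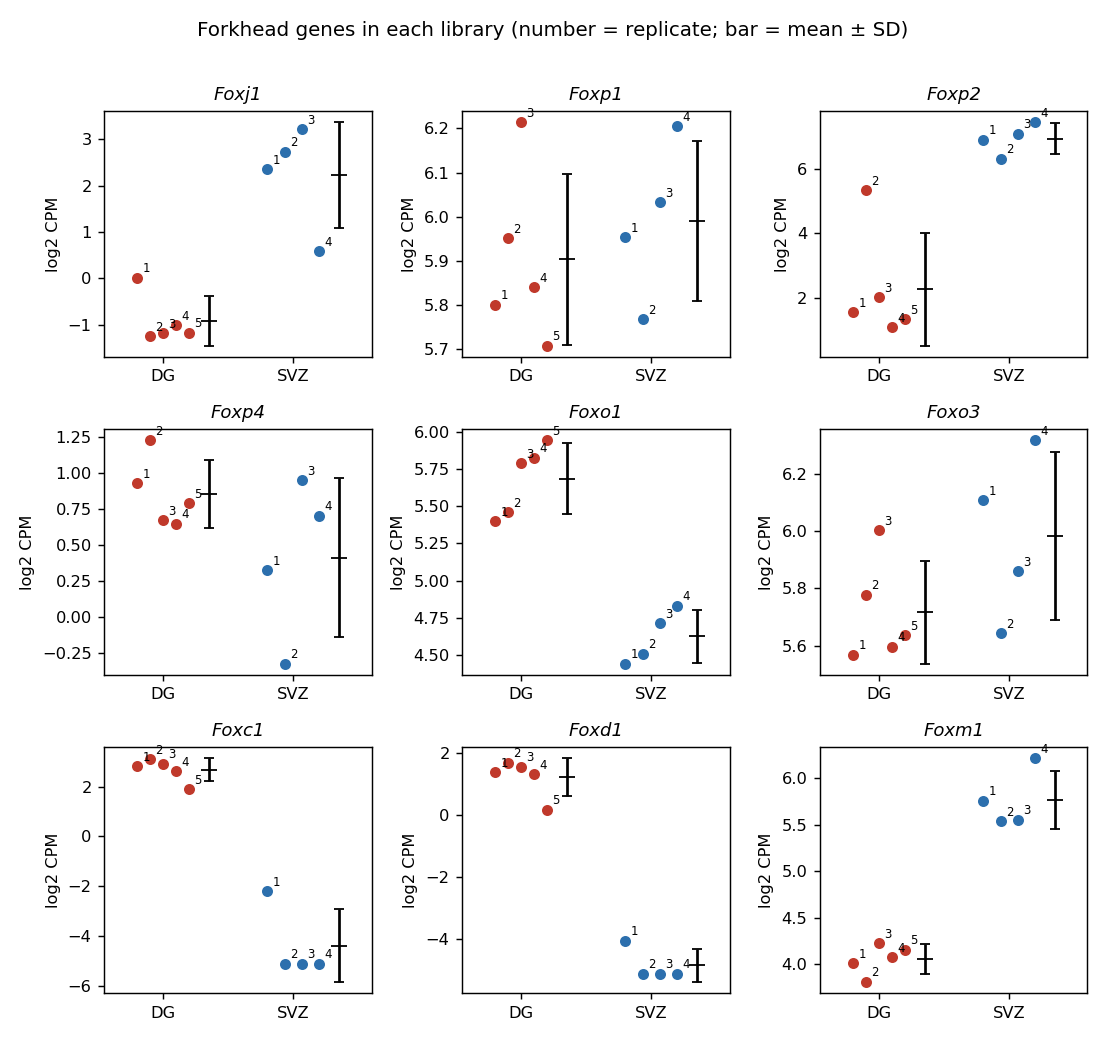
Deposited log2 CPM of the 9 forkhead members in each library, DG in red (n = 5) and SVZ in blue (n = 4), with the replicate number beside each point and a bar at the group mean ± SD. DG and SVZ points do not overlap for Foxj1, Foxp2, Foxo1, Foxc1, Foxd1 and Foxm1, and DG 2 stands at 5.33 for Foxp2 while the other DG libraries lie between 1.10 and 2.02.

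Foxj1 (chr11:116330704-116335399, minus strand), the regulator of motile cilia, was 8.87-fold higher in the SVZ, and most of the ciliary genes measured were higher there as well. Its level was 0.01, -1.26, -1.18, -1.01 and -1.18 log2 CPM in DG 1 to DG 5 and 2.36, 2.73, 3.22 and 0.59 in SVZ 1 to SVZ 4. The groups did not overlap, but DG 1 was above the other DG libraries and SVZ 4 well below the other SVZ libraries. In reads these levels are few: 14 to 33 in the DG and 48 to 294 in the SVZ. Foxj1 was below 1 CPM in every DG library, so it could be among the measured genes only through the SVZ. Means were -0.92 ± 0.53 (SD, n = 5) and 2.23 ± 1.15 (SD, n = 4), a difference of -3.15 (SE 0.50, limma adjusted p = 0.000207).

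Of 42 measured genes of the motile cilia program, 35 were higher in the SVZ, 3 were higher in the DG and 4 did not pass. Over all genes, 33.7% were higher in the SVZ and 32.9% in the DG. The median difference was -2.64 against -0.07 over all genes. Some list genes, such as Tekt4 (73 DG reads in all), could be measured only through the SVZ. Cfap65, a cilia- and flagella-associated protein, differed by -4.04, Rsph4a, a radial spoke head protein, by -3.0, and Myb, a transcription factor that acts early in multiciliated cells, by -2.68. The per-library means of the list placed SVZ 4 at 3.23, below 3.91 to 4.28 in the other SVZ libraries, as Foxj1 did. DG means ranged from 1.21 in DG 3 to 2.02 in DG 1, and DG 1 was also the DG library with the most Foxj1. Foxj1 minus the mean of the list was -2.87 to -2.0 in the DG and -2.64 to -1.06 in the SVZ, ranges that overlap. The 3 genes higher in the DG were Rfx4 (1.74), Rsph9 (1.06) and E2f5 (0.55, limma adjusted p = 0.0314). Of the ciliary regulators of the RFX family, Rfx3 was 1.32-fold higher in the SVZ (limma adjusted p = 0.0277), and Rfx2 differed by -0.23 (adjusted p = 0.464), with its lowest level again in SVZ 4 (2.56, against 3.84 to 3.86). The call of E2f5 was lost without DG 1, DG 4, SVZ 1 or SVZ 3 and that of Rfx3 without DG 1, DG 5, SVZ 1 or SVZ 4, and Rfx2 was called when SVZ 4 was left out (-0.55). Mcidas, Gmnc, Ccno and Trp73 are not in the table analysed here. Choroid plexus, another ciliated tissue that expresses Foxj1, was represented by 5 genes, 3 of them higher in the SVZ, and its part in the result was not tested.

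Of the 3 Foxp genes measured, Foxp2 stood apart. It was 25.4-fold higher in the SVZ, while Foxp1 and Foxp4 had overlapping libraries and did not pass the threshold. Foxp2 (chr6:14901349-15441977, plus strand) stood at 1.56, 5.33, 2.02, 1.10 and 1.34 log2 CPM in DG 1 to DG 5 and at 6.91, 6.32, 7.08 and 7.45 in SVZ 1 to SVZ 4. DG 2 alone held 1444 Foxp2 reads, where the other DG libraries held 77 to 147 and the SVZ libraries 2486 to 5678. Means were 2.27 ± 1.74 (SD, n = 5) and 6.94 ± 0.47 (SD, n = 4), a difference of -4.67 (SE 0.73, limma adjusted p = 0.000182). DG 2 remained below every SVZ library.

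Foxp1 (chr6:98925338-99522721, minus strand) was nearly level, at 5.80, 5.95, 6.21, 5.84 and 5.71 in the DG and 5.95, 5.77, 6.03 and 6.21 in the SVZ. The difference was -0.09 with a 95% interval of -0.36 to 0.19 (limma adjusted p = 0.556). Foxp4 (chr17:47867133-47924645, minus strand) was low everywhere, with 56 to 83 reads per DG library and 24 to 60 per SVZ library. Its difference was 0.44 with a 95% interval of -0.21 to 1.09 (limma adjusted p = 0.206). The intervals show that a difference beyond 0.36 in either direction was outside the interval for Foxp1, while for Foxp4 a 2-fold higher level in the DG was within it. Because Foxp1 was level and Foxp2 was not, their ratio per kilobase of exon turned over between the tissues. Within libraries Foxp2 was 0.30 to 0.99 log2 units above Foxp1 in all 4 SVZ libraries, and the difference was -4.99 to -4.44 in 4 DG libraries and -0.87 in DG 2.

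The ventral GABAergic list held genes of ventral GABAergic neurons, not only of the lineage that yields olfactory interneurons. Of its 31 measured genes, 23 were higher in the SVZ and 5 higher in the DG, with a median of -3.51. Over all genes, 33.7% were higher in the SVZ and 32.9% in the DG. Some list genes, such as Gsx2 (21 DG reads in all), could be measured only through the SVZ. Dlx2, a homeobox regulator of the olfactory interneuron lineage, read 0.10, 3.40, -0.93, -0.54 and -1.03 in DG 1 to DG 5. It read 6.16 to 6.68 in the SVZ. DG 2 was thus the high DG library for Dlx2 and for Foxp2. Foxp2 minus the list mean was 1.38 to 2.27 in the SVZ, -0.95 to 0.04 in 4 DG libraries and 1.42 in DG 2, so that DG 2 lay within the SVZ range on this measure. The 5 genes higher in the DG were Calb2 (4.49), a calcium-binding protein of interneurons and of young granule cells, Ebf1 (5.60), Zfp503 (2.46), Drd1 (1.56) and Rarb (0.69).

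Proteins that work with Foxp factors were measured through 32 genes, of which 16 were higher in the SVZ, 5 were higher in the DG and 11 did not pass. Over all genes the shares were 33.7% higher in the SVZ and 32.9% higher in the DG, 66.6% in either direction. Subunits of the histone deacetylase complex NuRD, which Foxp proteins recruit, did not share 1 result. Chd3 (-1.82), Hdac2 (-1.46), Chd4 (-1.04), Mbd3 (-1.03), Chd5 (-0.80), Mta1 (-0.77) and Gatad2b (-0.72) were higher in the SVZ. Hdac1 (-0.15), Gatad2a (-0.29), Mta2 (-0.56), Mta3 (-0.03), Rbbp4 (-0.41), Rbbp7 (-0.04) and Mbd2 (0.13) did not pass. None of these subunits was called higher in the DG. The corepressor Ctbp1 differed by -0.84. Bcl11a, a zinc finger repressor, differed by -2.46. On the DG side were the nuclear receptors Nr2f2 (3.0) and Nr2f1 (1.36), Nfatc2 (2.40), a member of a family with which forkhead domains bind DNA, and Tbr1 (2.28), a regulator of glutamatergic neurons that binds Foxp2 protein.

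Foxo1 and Foxo3 also parted. Foxo1 was 2.08-fold higher in the DG, and Foxo3 did not pass the threshold. Foxo1 (chr3:52268336-52353221, plus strand) was at 5.40, 5.46, 5.79, 5.82 and 5.94 log2 CPM in DG 1 to DG 5 and at 4.44, 4.51, 4.72 and 4.83 in SVZ 1 to SVZ 4. Every DG library was above every SVZ library, with means of 5.68 ± 0.24 (SD, n = 5) and 4.63 ± 0.18 (SD, n = 4). The difference was 1.06 (SE 0.14, limma adjusted p = 6.09e-05). An antisense transcript, Gm20402, shares 674 bases (7.78%) of the Foxo1 exons, and reads of the 2 cannot be told apart in libraries that do not mark strand.

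Foxo3 (chr10:42181841-42276755, minus strand) was at 5.57, 5.78, 6.0, 5.60 and 5.64 in the DG and 6.11, 5.64, 5.86 and 6.32 in the SVZ. The groups overlapped, and the difference was -0.27 with a 95% interval of -0.59 to 0.06 (limma adjusted p = 0.129). Leaving out SVZ 2, the lowest SVZ library, brought Foxo3 past the threshold at -0.38 (adjusted p = 0.0385). Per kilobase, Foxo1 minus Foxo3 within a library was -0.51 to 0.11 in the DG and -1.86 to -1.33 in the SVZ. The 2 paralogs thus lay close together in DG libraries, while Foxo3 exceeded Foxo1 in every SVZ library. The ranges did not overlap.

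Genes regulated by FoxO proteins showed no shared direction: of 47 measured, 21 were higher in the DG, 12 were higher in the SVZ and 14 did not pass, with a median of 0.15. The share called in either direction was near the 66.6% of all genes, of which 32.9% were higher in the DG. On the DG side were Tnfsf10 (5.08), the death ligand TRAIL, Pmaip1 (3.96), a pro-apoptotic BH3 protein, S1pr1 (2.08), a sphingosine phosphate receptor, and Cat (0.39), the hydrogen peroxide scavenger. On the SVZ side, Cdkn1b, the cell cycle inhibitor p27 that FoxO proteins induce, was 1.97-fold higher (limma adjusted p = 1.90e-05), and Fbxo32 (-1.02), Ccng2 (-1.70) and Btg1 (-2.03), also FoxO-induced, were higher there too. Ccnd2, cyclin D2, which FoxO proteins repress, was 7.34-fold higher in the SVZ. Paralogs of Ccnd2 and Cdkn1b in the list did not follow: Ccnd1 (0.82) and Cdkn1a (0.67) were higher in the DG, and Cdkn1c (-0.25) did not pass. Sod2, a mitochondrial superoxide dismutase, differed by -0.20, Bcl2l11 by -0.14, Txnip by 0.12, Irs2 by -0.25 and Pik3ip1 by 0.51, and none of these passed.

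Upstream kinases, phosphatases and partners of FoxO numbered 43, with 12 higher in the DG, 20 higher in the SVZ and 11 not called. For comparison, 32.9% of all genes were higher in the DG and 33.7% higher in the SVZ, 66.6% in either direction. The DG side was led by Inpp4b (5.84), a phosphoinositide phosphatase, Sirt2 (1.77), a deacetylase, and Sgk1 (1.90), a kinase that phosphorylates FoxO proteins. Inpp4b had a pattern close to that of the pericyte gene Notch3, which together spanned 5.22 to 7.33 log2 CPM in the DG and -0.38 to 1.69 in the SVZ. The SVZ side included Skp2 (-1.38), a ubiquitin ligase subunit that targets Foxo1, Stk4 (-0.56), the kinase MST1, and Ywhaq (-0.64), a 14-3-3 protein that holds phosphorylated FoxO in the cytoplasm. RNA levels do not report phosphorylation or location of the FoxO proteins.

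**Figure D2:**
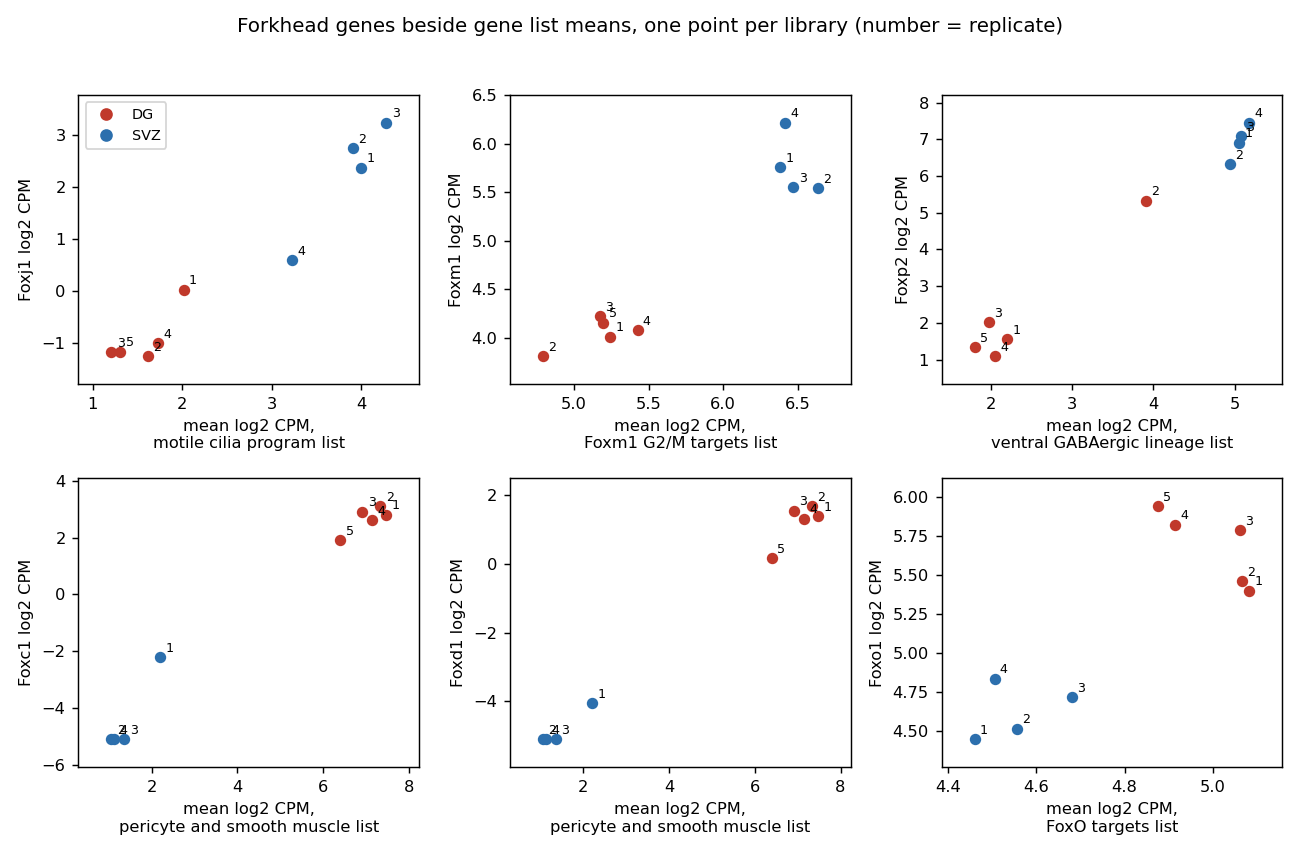
Level of each of 6 forkhead members in each library (vertical axis, log2 CPM) against the mean log2 CPM over a list of genes linked to it (horizontal axis), with DG in red and SVZ in blue and 1 point per library. DG 2 sits near the SVZ libraries in the Foxp2 panel, and SVZ 4 is the lowest SVZ point for Foxj1 and for the cilia list.

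Foxc1 and Foxd1, the mesenchymal members, had nearly all of their reads in the DG. Foxc1 (chr13:31806633-31812476, plus strand) had 235, 309, 274, 224 and 153 reads in DG 1 to DG 5, and 6 reads in SVZ 1 with 0 in the other 3 SVZ libraries. In log2 CPM the DG libraries lay at 2.81, 3.11, 2.92, 2.63 and 1.91, DG 5 being the lowest. Summed over libraries, 1195 DG reads against 6 SVZ reads gave a rate ratio of 138 (exact 95% interval 63.2 to 377, counting error only). A count of 0 allows up to 3 reads, which is 0.0922 to 0.0964 CPM in these libraries. The fitted difference was 7.06 (SE 0.60, limma adjusted p = 1.78e-06), a value that depends on the added prior read and is no bound. It was 8.59 with a prior of 0.25 reads and 5.19 with 5 reads. The SE and p-value rest on the prior as well, because the 3 SVZ libraries at 0 reads are tied. Each gene measured exceeded 1 CPM in at least 3 libraries, which Foxc1 could meet only through the DG.

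Foxd1 (chr13:98354242-98359305, plus strand) had fewer reads in the same layout. DG 1 to DG 5 held 87, 114, 106, 90 and 45 reads, and the SVZ libraries held 1 read in SVZ 1 and 0 in the others. DG levels were 1.39, 1.68, 1.56, 1.32 and 0.17 log2 CPM, so that DG 5 was again the lowest, by more than 1 log2 unit. The rate ratio of 442 to 1 reads was 306, with an exact 95% interval of 54.6 to 12116, and the fitted difference was 6.07 (SE 0.43, limma adjusted p = 4.94e-07). As for Foxc1 this value depends on the prior, and was 7.71 with a prior of 0.25 reads and 4.01 with 5 reads. The SE and p-value share that limit, and Foxd1 too could be among the measured genes only through the DG. Foxc1 exceeded Foxd1 per kilobase in all 5 DG libraries, by 1.10 to 1.53 log2 units.

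Most vascular and meningeal markers were higher in the DG, as these 2 genes were, and followed them only in part in single libraries. The DG exceeded the SVZ past the threshold in 23 of 23 genes of pericytes and smooth muscle (median 5.90) and 25 of 25 of endothelium (median 5.89). The same held for 17 of 19 of meningeal and perivascular fibroblasts (median 4.18) and for 32.9% of all genes. Some list genes, such as Tbx2 (4 SVZ reads in all), Sox18 (8) and Lum (9), could be measured only through the DG, which favours this direction. Summed pericyte and smooth muscle levels were 7376 to 15371 CPM in the DG and 116 to 257 CPM in the SVZ, endothelial levels 1856 to 3622 and 75.1 to 188, and fibroblast levels 1882 to 2622 and 143 to 217. None of these genes was at 0 in all SVZ libraries. The lists are not exclusive: Pdgfra of the fibroblast list and Cspg4 of the pericyte list are also in the oligodendrocyte list. Of the oligodendrocyte genes, 13 of 17 were higher in the DG. Pdgfrb, a receptor of the pericyte and smooth muscle list, stood at 9.29 to 10.73 log2 CPM in the DG and 4.26 to 4.62 in the SVZ. Lum, a collagen-binding proteoglycan of fibroblasts, stood at 1.99 to 4.27 and -4.07 to -3.01. The single SVZ library with Foxc1 and Foxd1 reads, SVZ 1, had the highest mean of the SVZ libraries for each of these lists. Its pericyte mean was 2.20 (against 1.06 to 1.36), its endothelial mean 1.74 (against -0.21 to -0.05) and its fibroblast mean 1.43 (against 0.77 to 1.16). DG 5, lowest for both genes, had the lowest pericyte mean (6.40, against 6.91 to 7.47) and fibroblast mean (4.46, against 4.76 to 5.18) of the DG libraries. Its endothelial mean was also the lowest, but barely (5.37, against 5.38 to 6.40). The highest DG libraries did not match. Foxc1 (3.11) and Foxd1 (1.68) were highest in DG 2. The pericyte mean (7.47) and the fibroblast mean (5.18) were highest in DG 1, and the endothelial mean (6.40) in DG 3. Foxc1 minus the pericyte mean was -4.66 to -4.00 in the DG and -4.41 in SVZ 1, within that range. Against the other lists SVZ 1 lay below the DG range: Foxc1 minus the fibroblast mean was -3.63 there against -2.56 to -1.90, and Foxc1 minus the endothelial mean -3.95 against -3.49 to -2.33. Foxd1 had a single read in SVZ 1, where its value rests in large part on the prior read. For pericytes it lay there just below the DG range, at -6.25 against -6.23 to -5.36. For fibroblasts it was at -5.48 against -4.30 to -3.33, and for endothelium at -5.80 against -5.20 to -3.76. Where 0 reads were seen the difference rests on the prior read. The part of these cell types in the differences of Foxc1 and Foxd1 was not tested.

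Foxm1 (chr6:128362967-128376146, plus strand), the driver of G2 and M phase genes, was 3.28-fold higher in the SVZ. It read 4.01, 3.81, 4.23, 4.08 and 4.16 log2 CPM in DG 1 to DG 5 and 5.76, 5.54, 5.56 and 6.22 in SVZ 1 to SVZ 4. The groups were tight and far apart, at 4.06 ± 0.16 (SD, n = 5) and 5.77 ± 0.31 (SD, n = 4), and the difference was -1.71 (SE 0.16, limma adjusted p = 3.10e-06). Foxm1 shares 144 exon bases with Tex52 and 97 with Gm44596, neither of which is in the table.

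Of 42 genes linked to Foxm1 or to the G2 and M phases, 40 were higher in the SVZ and 2 did not pass, with a median of -1.43. Over all genes, 33.7% were higher in the SVZ. Mki67, the proliferation marker Ki-67, was at 5.97 to 6.67 in the DG and 8.22 to 8.83 in the SVZ (-2.14). Top2a, which untangles DNA before division, differed by -1.84, the spindle checkpoint kinase Ttk by -1.57, the mitotic kinase Plk1 by -1.30 and Ccnb1, cyclin B1, by -1.20. The 2 genes that did not pass were Lin52 (0.24, limma adjusted p = 0.0763) and Rbl2 (0.15, adjusted p = 0.631). Lin52 belongs to the complex that partners with Foxm1 on its targets, and Rbl2 is a pocket protein of quiescent cells. Foxm1 minus the list mean was -1.35 to -0.95 in the DG and -1.09 to -0.20 in the SVZ, ranges that overlap, with SVZ 4 the highest. SVZ 4 had the most Foxm1 but not the highest list mean, which was 6.63 in SVZ 2 and 6.41 in SVZ 4.

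**Figure D3:**
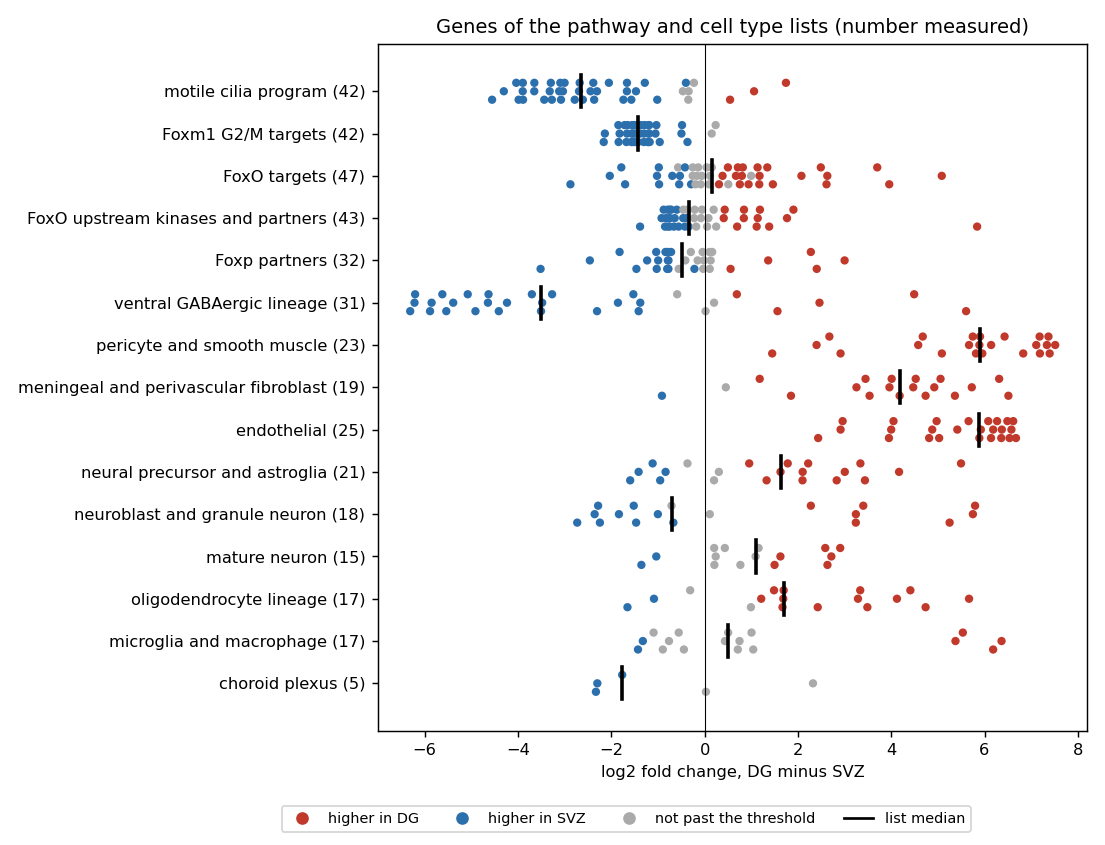
Difference in log2 CPM, DG minus SVZ, of each measured gene of 15 lists, in red where higher in the DG, blue where higher in the SVZ and grey where not past the threshold, with a bar at the list median. Most genes of the Foxm1 G2/M list lie left of 0, around -1.43. The pericyte and endothelial genes lie right of 0, around 5.90 and 5.89, and the FoxO targets spread on both sides.

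Levels of different genes were compared as CPM per kilobase of exon. In the DG the order was Foxo3 (6.98 ± 0.91), Foxo1 (5.99 ± 0.97), Foxp1 (4.38 ± 0.62), Foxm1 (2.90 ± 0.31), Foxc1 (1.13 ± 0.31), Foxp2 (0.63 ± 1.02), Foxd1 (0.48 ± 0.16), Foxp4 (0.36 ± 0.06) and Foxj1 (0.20 ± 0.10), as mean ± SD over 5 libraries. Foxo3 and Foxo1 did not differ beyond the sum of their SDs, nor did Foxc1 and Foxp2, Foxp2 and Foxd1, or Foxd1 and Foxp4. In the SVZ the order was Foxm1 (9.65 ± 2.26), Foxo3 (8.48 ± 1.72), Foxp2 (7.80 ± 2.40), Foxp1 (4.65 ± 0.58), Foxo1 (2.86 ± 0.36), Foxj1 (2.15 ± 1.25) and Foxp4 (0.28 ± 0.10), over 4 libraries, with Foxc1 and Foxd1 last. Foxm1 and Foxo3, Foxo3 and Foxp2, Foxo1 and Foxj1, and Foxc1 and Foxd1 did not differ beyond their SDs there. The FoxO genes thus led in the DG, and Foxm1 and Foxp2 moved up from ranks 4 and 6 to ranks 1 and 3 in the SVZ. Foxp1 and Foxp2 have long exon unions (13751 and 16346 bases), and with the longest coding transcript (7177 and 6760 bases) Foxp1 led in the DG and Foxp2 in the SVZ.

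**Figure D4:**
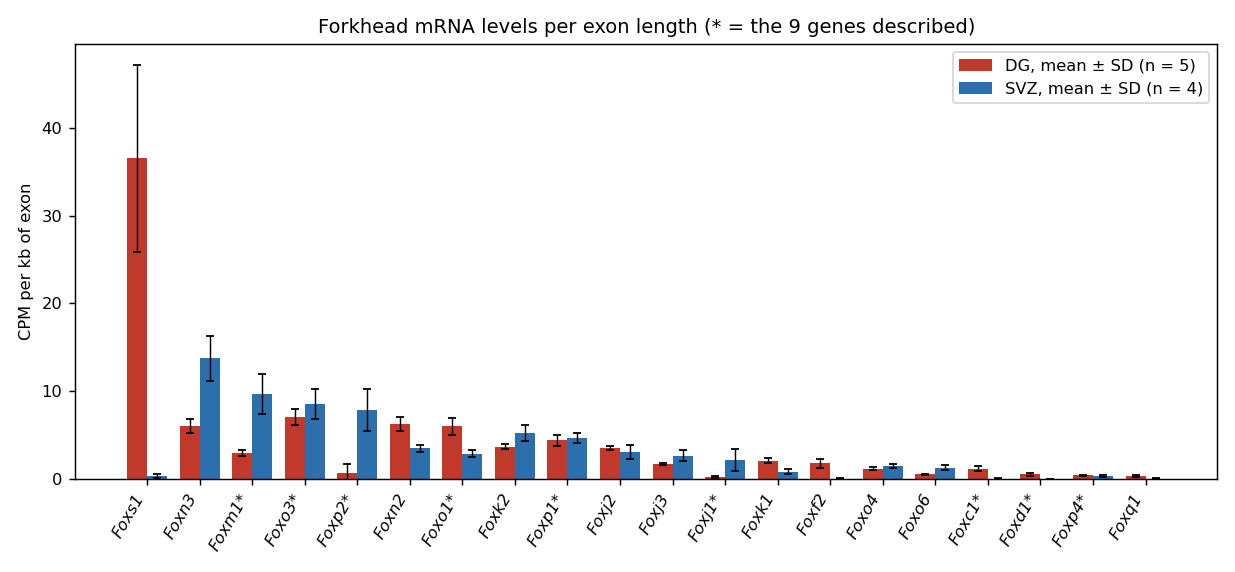
Level of 20 forkhead genes in CPM per kilobase of exon as mean ± SD, DG in red (n = 5) and SVZ in blue (n = 4), with asterisks on the 9 members. Foxs1 is the highest in the DG, at a mean of 36.6 against 0.32 in the SVZ.

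The 12 other forkhead genes of the table divided as evenly as the 9 members. Of these, 5 were higher in the DG, 5 were higher in the SVZ and 2 did not pass (median -0.05). No overlap between the groups was seen for 10, against 58% of all genes, of which 66.6% were called. Foxs1, Foxf2 and Foxq1 were below 1 CPM in every SVZ library. They could be among the measured genes only through the DG, which favours their direction. The highest forkhead gene of the DG was Foxs1, a gene of pericytes and smooth muscle, at 36.6 ± 10.7 CPM per kilobase, or 39.9% of the summed forkhead level, against 0.32 ± 0.21 and 0.38% in the SVZ. Its libraries read 5.88, 5.95, 4.98, 5.73 and 5.12 log2 CPM in the DG and -0.30, -2.67, -1.53 and -1.12 in the SVZ, with SVZ 1 again the highest of the SVZ. Foxf2, which acts in brain pericytes, had 755 DG reads and 4 SVZ reads, a rate ratio of 131 (exact 95% interval 50.8 to 481). Foxq1 had 266 and 4 reads (ratio 46.0, exact 95% interval 17.8 to 170), but 66.1% of its exon bases lie opposite A530084C06Rik, so the source of its reads is uncertain. The fitted differences were 6.93 for Foxs1, 6.17 for Foxf2 (7.08 with a prior of 0.25 reads and 4.57 with 5) and 4.78 for Foxq1 (5.96 and 3.15). The remaining DG genes were Foxk1 (1.40), a nuclear repressor of autophagy genes, and Foxn2 (0.83).

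Foxo6 (-1.33), a FoxO gene of neurons, Foxn3 (-1.19), a checkpoint repressor, Foxj3 (-0.62) and Foxk2 (-0.49) were higher in the SVZ. Foxj2 (0.26, 95% interval -0.11 to 0.63) and Foxo4 (-0.37, 95% interval -0.78 to 0.05) did not pass. FoxO genes thus gave Foxo1 on the DG side, Foxo6 on the SVZ side, and Foxo3 and Foxo4 without a call.

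**Figure D5:**
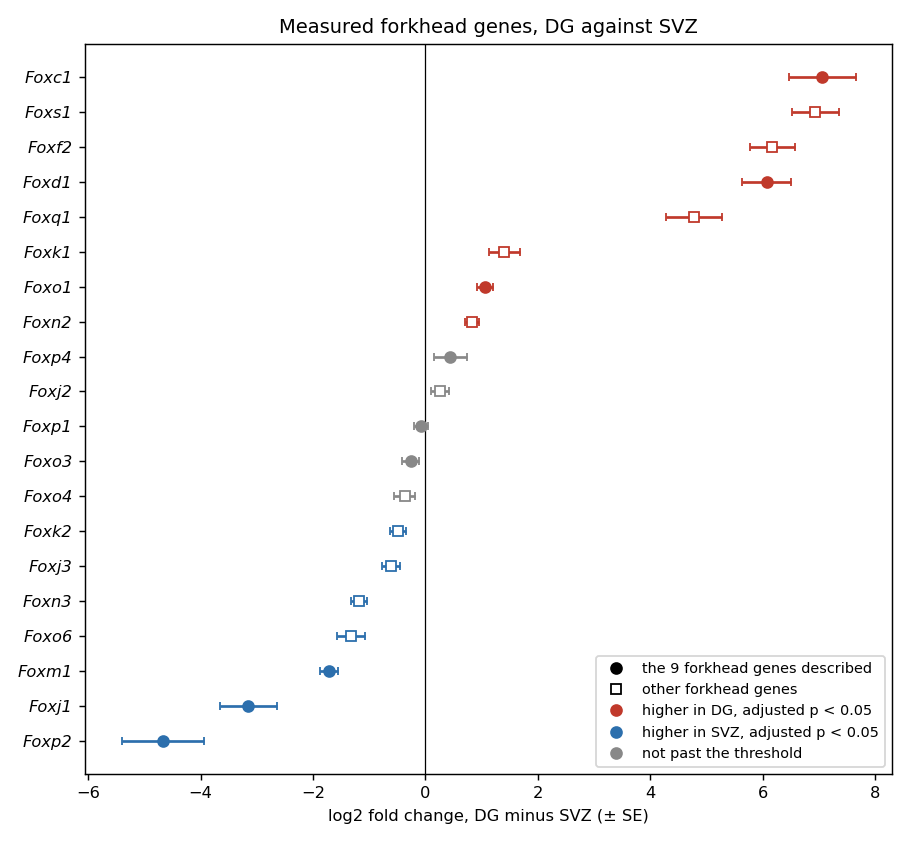
Difference in log2 CPM, DG minus SVZ, with its standard error, for 20 forkhead genes, with filled circles for the 9 members and open squares for the others, in red where higher in the DG, blue where higher in the SVZ and grey where not past the threshold. The values run from -4.67 for Foxp2 to 7.06 for Foxc1, the latter dependent on the prior read, and Foxp4, Foxj2, Foxp1, Foxo3 and Foxo4 lie nearest to 0, in grey.

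Genes whose pattern over the 9 libraries was most like that of a member were taken by the smallest root mean square (RMS) difference of centred log2 CPM among 9467 genes. The measure is a description, since all genes share the same 9 libraries and their depth. For Foxj1 the nearest were Rsph1 (RMS 0.46), Tmem212 (0.46) and Rsph4a (0.54). For Foxp2, Pbx3, a homeobox gene, was nearest at an RMS of 0.13, far ahead of Tiam2 (0.41) and Prokr2 (0.43). Pbx3 was at 5.15 log2 CPM in DG 2, 0.90 to 1.84 in the other DG libraries and 6.25 to 7.27 in the SVZ. Foxc1 was nearest to Slc22a8 (0.25), an organic anion transporter, Esam (0.34), an endothelial adhesion molecule, and Rgs5 (0.35), a pericyte gene. Foxd1 was nearest to Notch3 (0.16), Inpp4b (0.21) and Pcolce (0.25). In the SVZ libraries at 0 reads, Foxc1 and Foxd1 rest on the prior read. Their nearest genes depend on it too, and were not sought with another prior. Foxm1 was nearest to Ccna2 (0.11), cyclin A2, Sgo2a (0.11), a protector of cohesin, and Mpdz (0.14). For Foxo1 the nearest were Sc5d (0.11), Fbxo6 (0.12) and Mpv17 (0.12), for Foxo3 Rab40c (0.07), Pi4ka (0.07) and Ids (0.08), for Foxp1 Ids (0.10), Eif4g3 (0.10) and St3gal2 (0.10), and for Foxp4 Ccser1 (0.19), Sergef (0.24) and Socs5 (0.27). Ids was thus among the nearest of Foxo3 and of Foxp1, both of which had overlapping groups.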

How the data were processed

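Values were the log2 CPM that the authors deposited for 9 libraries, 5 DG and 4 SVZ, made by poly-dT priming, template switching and PCR without molecular identifiers or strand marks, per the labels' protocols. The submitters' processing notes name STAR, edgeR and the mm10 build. Versions and other steps: not given in the sources used here. Those numbers themselves show that 1 read, scaled to the library, had been added to each count before CPM were taken: reads recovered on that basis were whole for 100% of values (tolerance 0.001). Each gene exceeded 1 CPM in at least 3 libraries, so a gene could enter through the tissue where it is high. Totals leave out reads of genes outside the table. Intervals on reads cover counting error only. No libraries of a group were duplicates (chi-square per degree of freedom 19.6 to 173).

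Of the identifiers, 14428 matched a GENCODE M21 symbol and 49 did not. limma 3.58.1 (R 4.3.3) was fitted with a mean-variance trend to all 14477 genes without a further filter, with tissue as the only term, and p-values were Benjamini-Hochberg adjusted over all genes at a threshold of 0.05. The fit was also run on simulated reads in which few genes were changed and all genes had a common spread. Most genes were called in the real data, so that run does not show how the fit performs here. A count model had been planned for raw counts and was not used, because the deposited unit is log2. Reads were used for rate ratios with exact 95% intervals, and levels per kilobase used merged exons. The named genes are the 9 members, the 12 other forkhead genes, not all of which are reported here, up to 3 genes per direction of each of 15 lists with the smallest adjusted p, some list genes chosen for their role, and the 3 genes nearest to each member. Nearest genes had a mean of at least 3 log2 CPM. The members and lists were chosen with earlier results of these data known. Alternatives were 2 other scalings, priors of 0.25 and 5 reads, a filter, no trend, voom weights, each library left out, a replicate block and another transcript length.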

Additional observations from a re-analysis of the deposited data

Results flagged for a closer look

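In 42 groups of 4 or 5 libraries, the 21 forkhead genes in each tissue, 7 had an end library whose gap to the next was large for the range of its group by Dixon's 95% criterion. Chance gives about 1 in 20. DG 2 was high for Foxp2 (5.33 log2 CPM, others 1.10 to 2.02), and DG 1 was high for Foxj1 (0.015 log2 CPM, 33 reads, others -1.26 to -1.01). DG 5 was low for Foxd1 (0.17 log2 CPM, others 1.32 to 1.68) and for Foxk1 (3.55, others 3.94 to 4.09). SVZ 1 was high for Foxc1 (-2.20 log2 CPM, 6 reads against 0) and for Foxd1 (-4.05, 1 read against 0), but in both the other 3 SVZ libraries are tied at 0 reads, so that any read would have met the criterion. These 2 are therefore not counted against chance, which leaves 5. SVZ 2 was high for Foxo4 (2.66 log2 CPM, others 2.25 to 2.30).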

How the results depend on the processing

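Foxj1, Foxp2, Foxo1, Foxc1, Foxd1 and Foxm1 kept their direction and call under every alternative that gave them a value, and no forkhead gene or list gene named here turned its direction with a call. Without DG 2 the Foxp2 difference was -5.43, and without SVZ 1 that of Foxc1 was 7.78. Foxo3 ranged from -0.38 to -0.15 as single libraries were left out, and was called only without SVZ 2. Foxj2 was called without SVZ 4 (0.43), and Foxo4 without the mean-variance trend (-0.37). Median-ratio scaling moved the median over all genes from -0.07 to -0.04 and upper-quartile scaling to -0.12, with 4926 and 4604 genes higher in the DG and 4612 and 5217 higher in the SVZ.

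A filter at a mean of 3 log2 CPM tests fewer genes and left no value for Foxj1, Foxp4, Foxc1 and Foxd1. With it, 2938 of all genes, 1 member and 2 other forkhead genes were higher in the DG. Counts higher in the DG became 13 for FoxO targets, 3 for Foxp partners, 2 for the ventral GABAergic list, 10 for fibroblast, 15 for endothelial, 3 for neuroblast and granule neuron, 3 for mature neuron and 2 for microglia and macrophage genes. Counts higher in the SVZ became 11 for motile cilia, 15 for the ventral GABAergic list, 1 for mature neuron, 1 for microglia and macrophage and 0 for choroid plexus genes. With single libraries left out, microglia and macrophage genes gave 4 to 7 higher in the DG (7 without DG 2) and 0 to 5 higher in the SVZ (0 without SVZ 3 or SVZ 4, 1 without DG 2, 5 without SVZ 1), and choroid plexus genes 0 to 1 higher in the DG (1 without DG 3 or DG 4). The cause was not tested.

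Same-numbered libraries did not deviate together (correlations -0.17 to 0.01), so the numbers were not taken to pair them. With the replicate block, 4513 genes were higher in the DG and 4284 in the SVZ, and 1 microglia and macrophage gene was higher in the SVZ. With the longest coding transcript as length, the DG ranks became Foxp1 1, Foxo3 2, Foxo1 3, Foxp2 5 and Foxc1 6, and the SVZ ranks Foxp2 1, Foxm1 2 and Foxo3 3. Depth limits Foxc1, Foxd1, Foxf2 and Foxq1 in the SVZ, where 6 reads or fewer were counted over 4 libraries.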

Other observations

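Closely related forkhead genes lay on different sides of the comparison. Foxk1 was higher in the DG (1.40) and Foxk2 higher in the SVZ (-0.49). Foxn2 was higher in the DG (0.83) and Foxn3 higher in the SVZ (-1.19). Foxo1 was higher in the DG (1.06) and Foxo6 in the SVZ (-1.33). On the log2 scale per kilobase, Foxk1 minus Foxk2 within a library was -1.36 to -0.60 in the DG and -3.95 to -2.11 in the SVZ, and Foxn2 minus Foxn3 was -0.22 to 0.56 and -2.33 to -1.45. Foxo1 minus Foxo6 was 2.99 to 3.99 and 1.02 to 1.46. The ranges of the tissues did not overlap in any of these 3 pairs. The pairs were chosen after their values were seen, and the differences within libraries were not tested.

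Among the DG libraries, Foxo1 was highest in DG 5 (5.94 log2 CPM) and DG 4 (5.82), which had the lowest means of the FoxO target list (4.87 and 4.91), and lowest in DG 1 (5.40), which had the highest (5.08). The order of the tissues was the other way, with list means of 4.46 to 4.68 in the SVZ. With 5 libraries this relation was not tested.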
